A study of Mus musculus with 6 samples.

Results

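Host transcripts of intronic microRNAs are ordinary gene transcripts that carry a microRNA hairpin inside an intron. Of 6 such genes named for study, Nfyc, Pank2, Ctdsp1, R3hdm1, Dnm3 and Egfl7, 5 had a transcript cluster (a set of probes read as 1 transcript) annotated with that gene alone. These 5 stood among 7623 genes with a cluster of their own. Egfl7 was listed only on a cluster shared with its microRNA gene, Mir126a, and is described apart. Of the 5, 4 lay above the low-signal limit and were tested, and Dnm3 lay below it.

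Signals came from Melan-a cells, an immortalised pigmented melanocyte line of C57BL/6 mice, 48 h after transfection per the titles. A group of 3 arrays came from cells given siDicer, an siRNA against Dicer, and 3 from cells given siScr, a control siRNA, each group with 1 array from passages 47, 54 and 56. Both groups were grown with 200 nM of the phorbol ester TPA and received 50 pmol of siRNA per well by lipofection on a magnetic plate. The treatment protocol describes an earlier lysis than the titles do, and the design text calls the arrays biological replicates of a single line.

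A microRNA hairpin in an intron is copied together with its host. In the nucleus the Microprocessor, the complex of Drosha and Dgcr8, cuts the hairpin out, and the rest of the transcript can still be spliced into the host's mRNA. Dicer then cuts the exported hairpin near its loop and releases the mature microRNA, whose seed, bases 2 to 8, pairs with target mRNAs. A hairpin can also lie within a gene's bounds on the opposite strand, where it belongs to another transcript.

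The sequences below are shown because each cluster pair in the comparison is a host and the hairpin it holds. By position in the RefSeq mouse annotation, Nfyc held Mir30e, Mir30c-1 and Mir30f, Pank2 held Mir103-2, Ctdsp1 held Mir26b, R3hdm1 held Mir128-1, and Egfl7 held Mir126a, with Mir126b on the opposite strand. All of these but Mir126b, and Mir30f, whose strand was not used here, lay on their host's strand. Dnm3 differed. Mir199a-2 and Mir214 lay within its bounds on the opposite strand, inside the long noncoding RNA Dnm3os, so Dnm3 transcription does not copy them. Exon positions were not used here. One mature arm of each is given 5′ to 3′ from RefSeq (GRCm38.p6), with the seed in capitals.
mmu-miR-30e-5p: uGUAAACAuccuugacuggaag
mmu-miR-30c-5p: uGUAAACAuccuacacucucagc
mmu-miR-103-3p: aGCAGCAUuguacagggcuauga
mmu-miR-26b-5p: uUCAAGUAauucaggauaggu
mmu-miR-128-3p: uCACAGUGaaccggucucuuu
mmu-miR-199a-5p: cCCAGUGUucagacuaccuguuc
mmu-miR-214-3p: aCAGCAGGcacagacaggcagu
mmu-miR-126a-3p: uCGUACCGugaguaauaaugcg

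The arms of Mir30e and Mir30c-1 shared the seed GUAAACA, and the other 6 printed arms each had a seed of their own. The mature miR-30c-5p, miR-103-3p, miR-128-3p and miR-199a-5p are each also made from a further gene in the RefSeq table, Mir30c-2, Mir103-1, Mir128-2 and Mir199a-1, so the mature RNA does not identify the host. The clusters of Mir103-2 and Mir128-1 carried the largest differences among the 5 tested microRNA clusters held by the named hosts, and their hairpins, the form that Dicer cuts, are printed with the annotated mature arms in capitals. In the RefSeq table the Mir103-2 hairpin spans chr2:131288052-131288137 on the plus strand and that of Mir128-1 chr1:128202361-128202430 on the plus strand, both in GRCm38.p6, while the build behind the array's clusters is not given in the sources used here.
Mir103-2: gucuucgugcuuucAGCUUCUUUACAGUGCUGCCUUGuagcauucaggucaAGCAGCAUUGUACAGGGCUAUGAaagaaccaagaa
Mir128-1: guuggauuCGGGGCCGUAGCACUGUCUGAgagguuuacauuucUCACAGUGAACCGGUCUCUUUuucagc

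No host transcript passed the test between siDicer and siScr cells. R3hdm1 was the member with the largest difference, lower in siDicer at every passage, Pank2 was slightly lower at every passage, Nfyc slightly higher at every passage, and Ctdsp1 changed sign between passages. Of the 4 tested members 0 passed (limma, adjusted over 5336 genes, threshold 0.05), 1 (R3hdm1) had an unadjusted p under 0.05, and 2 were higher and 2 lower, with a median log2 difference of -0.014. Over all tested genes 0.0187% passed, 8.51% had an unadjusted p under 0.05 and the median was -0.0092. With passage as a block 1.76% of genes passed and still 0 members, and 13.8% of genes and 1 member (R3hdm1) had an unadjusted p under 0.05. The whole-table count was small and unstable, 1 gene over all arrays, 0 once the siDicer array of passage 56 was left out and 2 once the siScr array of passage 54 was. With the block it was 94 genes, and 5, 18 and 154 without passages 47, 54 and 56. Signals are on a log2 scale, arrays had medians of 4.63 to 4.68, and differences are siDicer minus siScr. In RNA from whole wells, fewer cells of a kind and less RNA per cell cannot be told apart. Dicer1 was not analysed here, so there was no check of the knockdown.

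R3hdm1, on chromosome 1, encodes a protein with an R3H domain, a fold that binds nucleic acids. Its log2 signal (cluster TC0100001129.mm.1) was 8.43, 8.37 and 8.48 in siDicer cells at passages 47, 54 and 56, against 8.71, 8.65 and 8.64 in siScr cells. All 3 siDicer arrays lay below all 3 siScr arrays. Such a gap in either direction was seen in 14.4% of tested genes, and in 7.76% with siDicer lower. The means were 8.43 ± 0.051 in siDicer and 8.67 ± 0.040 in siScr (SD, n = 3 each), a level 1.18-fold lower in siDicer. The log2 difference was -0.24 with a standard error of 0.065 and a 95% interval of -0.39 to -0.091 (limma, adjusted p = 0.287, and adjusted p = 0.141 with passage as a block), so it did not pass. By passage the differences were -0.28, -0.28 and -0.16. Leaving out 1 array gave -0.26 to -0.21, and the adjusted p ranged from 0.0933 to 0.624 over the alternatives run.

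Nfyc, on chromosome 4, encodes the C subunit of NF-Y, the trimeric transcription factor that binds CCAAT boxes. Its log2 signal (cluster TC0400003440.mm.1) was 9.23, 9.08 and 9.24 in siDicer cells, against 9.03, 8.91 and 9.20 in siScr cells, in order of passage. Within each passage the siDicer array was the higher, by 0.19, 0.17 and 0.036, but the groups overlapped, and the passage 54 arrays were the lowest of both groups. A shared direction at all 3 passages was found in 36.1% of tested genes. Means were 9.18 ± 0.089 and 9.05 ± 0.15 in siDicer and siScr (SD, n = 3 each), and the log2 difference of 0.13 ± 0.092 (SE) did not pass (limma, adjusted p = 0.755). With passage as a block the 95% interval was -0.023 to 0.29 (limma, adjusted p = 0.451). Without the block it was -0.079 to 0.35, which leaves room for a level up to 1.27-fold higher in siDicer. Without siScr replicate 2 the difference was 0.063, and without siScr replicate 3 it was 0.21.

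Pank2, on chromosome 2, encodes a pantothenate kinase, an enzyme of the first step of coenzyme A synthesis. Its log2 signal (cluster TC0200002013.mm.1) was 8.05, 8.01 and 8.20 in siDicer cells, against 8.17, 8.12 and 8.28 in siScr cells. The groups overlapped, with passage 56 high in both, while the differences within passages were close to each other at -0.12, -0.10 and -0.079. Means were 8.09 ± 0.10 in siDicer and 8.19 ± 0.086 in siScr (SD, n = 3 each). The log2 difference of -0.10 ± 0.080 (SE, 95% interval -0.29 to 0.084) did not pass (limma, adjusted p = 0.805). With passage as a block the interval was -0.24 to 0.039 (limma, adjusted p = 0.526). The unblocked difference was -0.16 without siDicer replicate 3 and -0.054 without siScr replicate 3.

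Ctdsp1, on chromosome 1, encodes a small phosphatase of the RNA polymerase II tail that helps to silence neuronal genes in other tissues. Its log2 signal (cluster TC0100000633.mm.1) was 8.56, 8.44 and 8.36 in siDicer cells, against 8.42, 8.28 and 8.44 in siScr cells. The siDicer array was higher at passages 47 and 54, by 0.14 and 0.16, and lower at passage 56, by -0.079. The log2 difference was 0.073 ± 0.080 (SE, 95% interval -0.11 to 0.26) and did not pass (limma, adjusted p = 0.873). With 1 array left out it ran from 0.020 without siDicer replicate 1 to 0.12 without siDicer replicate 3.

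Dnm3, on chromosome 1, encodes a dynamin, a GTPase of membrane fission best known from brain and testis. It lay under the low-signal limit of log2 4.15, the 30th percentile of gene means, with 3.41, 3.42 and 3.32 in siDicer cells and 3.37, 3.40 and 3.39 in siScr cells. The groups overlapped, and in the fit that kept dim genes the difference was -0.0022 ± 0.051 (SE, limma, adjusted p = 0.999). The opposite-strand partner was also dim. The cluster annotated with Dnm3os, Mir199a-2 and Mir214 together read 2.75, 2.83 and 2.87 in siDicer and 2.88, 2.85 and 2.81 in siScr. It belongs to 3 genes and was not tested for any of them.

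Egfl7, on chromosome 2, encodes a secreted protein of endothelial cells, and its cluster TC0200005464.mm.1 also lists Mir126a, so a value there cannot be given to either gene. That cluster read 6.42, 6.30 and 6.19 in siDicer cells, against 6.28, 6.29 and 6.32 in siScr cells. The siDicer arrays spread more widely than the siScr arrays and lay on both sides of them. In a fit to all clusters of the table the difference was 0.0091 ± 0.080 (SE, limma, adjusted p = 1.00). Mir126b, the opposite-strand hairpin, lay under the low-signal limit at 3.22, 2.83 and 3.04 in siDicer and 3.13, 3.01 and 3.15 in siScr. Of 5 endothelial markers read on these arrays, Tie1, Emcn, S1pr1, Sele and Selp, 2 lay above the low-signal limit, and their means ran from 3.20 (Emcn) to 5.44 (Tie1). Their summed level, as log2, was 6.71 to 6.85 in siDicer and 6.78 to 6.91 in siScr. All 4 melanocyte markers (Tyrp1, Slc24a5, Pax3 and Mlph) lay above the limit, at means of 10.03 to 12.83.

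**Figure D1:**
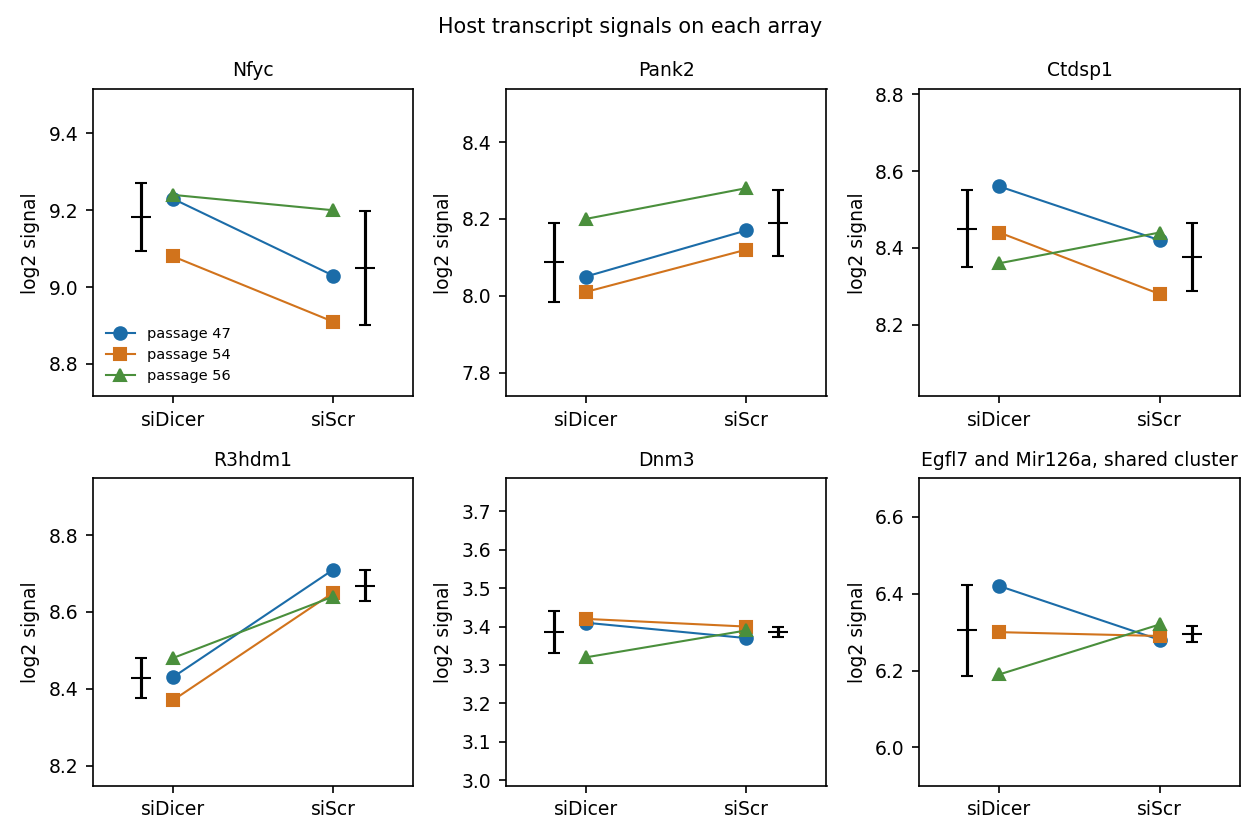
Log2 signal of each host transcript on each array, siDicer left and siScr right, with lines joining the arrays of 1 passage and black bars for the mean and SD of 3 arrays; every panel spans the same width on the log2 scale. R3hdm1 is the panel in which the groups separate, 8.37 to 8.48 in siDicer and 8.64 to 8.71 in siScr.

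The clusters of the microRNA genes were then set beside their hosts. Their probes can read the primary transcript, the cut hairpin or the host intron as well as the mature RNA. Of the 5 such clusters that were tested, 3 were higher and 2 lower in siDicer, and 0 passed (limma, adjusted over all genes, 0.0187% of all genes passed). An unadjusted p under 0.05 was found for 1, Mir103-2, and for 8.51% of all genes.

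Mir103-2, held by Pank2, makes miR-103-3p, whose family is known for restraining insulin signalling and for targeting Dicer1 itself in human cells. Its log2 signal was 4.92, 4.49 and 4.97 in siDicer cells, against 4.25, 4.31 and 4.62 in siScr cells, values not far above the low-signal limit. The siDicer array was the higher at each passage, by 0.67, 0.17 and 0.35, and the groups overlapped through siDicer at passage 54 and siScr at passage 56. Means were 4.79 ± 0.27 in siDicer and 4.39 ± 0.20 in siScr (SD, n = 3 each). The difference of 0.40 ± 0.14 (SE, 95% interval 0.068 to 0.73) did not pass (limma, adjusted p = 0.468, and adjusted p = 0.101 with passage as a block). Its adjusted p ranged from 0.0725 to 0.821 over the alternatives run. Pank2 differed in the other direction, by -0.10. The difference of the Mir103-2 cluster minus that of the Pank2 cluster was 0.50, positive at 3 of 3 passages (0.79, 0.28 and 0.43). An exact permutation test over the 6 arrays, which did not use the pairing by passage, gave a two-sided p of 0.1. That is the smallest that 3 against 3 unpaired arrays allow, and it was 0.5 after adjustment over the 5 pairs.

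Mir128-1, held by R3hdm1, makes miR-128-3p, a microRNA abundant in brain. Its log2 signal was 4.90, 5.09 and 4.86 in siDicer cells, against 5.09, 5.11 and 5.05 in siScr cells. It was lower at each passage, by -0.19, -0.017 and -0.18, and the groups overlapped through the siDicer array of passage 54. Host and microRNA cluster thus had the same sign, -0.24 for R3hdm1 and -0.13 ± 0.072 (SE, limma, adjusted p = 0.69) for Mir128-1, neither past the threshold. Without siDicer replicate 2 the Mir128-1 difference was -0.20. The microRNA difference minus the host difference was 0.11 (exact permutation test over 6 arrays, two-sided p = 0.4, adjusted p = 0.667 over 5 pairs), and it was 0.033 without passage 54 and 0.17 without passage 56.

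Mir30e and Mir30c-1, held by Nfyc, belong to the miR-30 family, known for restraining mesenchymal genes, and their clusters differed from siScr with opposite signs, neither past the threshold. Mir30e had a log2 signal of 5.17, 5.07 and 5.02 in siDicer, against 5.00, 4.86 and 5.18 in siScr, a difference of 0.071 ± 0.089 (SE, limma, adjusted p = 0.89). Mir30c-1 had 4.87, 4.90 and 4.76 in siDicer, against 4.91, 5.02 and 4.79 in siScr, a difference of -0.062 ± 0.075 (SE, limma, adjusted p = 0.883), which was -0.0066 without siScr replicate 2 and -0.12 without siScr replicate 3. In both clusters the groups overlapped. Over the 6 arrays, which share passages and treatment, Mir30e followed Nfyc at Pearson's r of 0.82 and Mir30c-1 ran against it at -0.91, given as a description. The other pairs were less closely tied, at 0.052 for Mir103-2 and Pank2, -0.054 for Mir26b and Ctdsp1, and 0.49 for Mir128-1 and R3hdm1. The difference of Mir30c-1 minus that of Nfyc was -0.20, below 0 at all 3 passages, and that of Mir30e minus Nfyc was -0.062 (exact permutation test over 6 arrays, two-sided p = 0.4 and 0.6, adjusted p = 0.667 and 0.75). Mir30f lay under the low-signal limit, at 3.18 to 3.37 in siDicer and 3.10 to 3.31 in siScr.

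Mir26b, held by Ctdsp1, makes miR-26b-5p, a relative of miR-26a. Its log2 signal was 5.62, 5.58 and 5.53 in siDicer cells, against 5.45, 5.66 and 5.59 in siScr cells, and the siDicer values lay within the range of the siScr values. The difference was 0.012 ± 0.072 (SE, 95% interval -0.15 to 0.18, limma, adjusted p = 0.987), with a sign that turned when an array of passage 47 was left out. The difference of Mir26b minus that of Ctdsp1 was -0.061 (exact permutation test over 6 arrays, two-sided p = 0.8, adjusted p = 0.8).

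**Figure D2:**
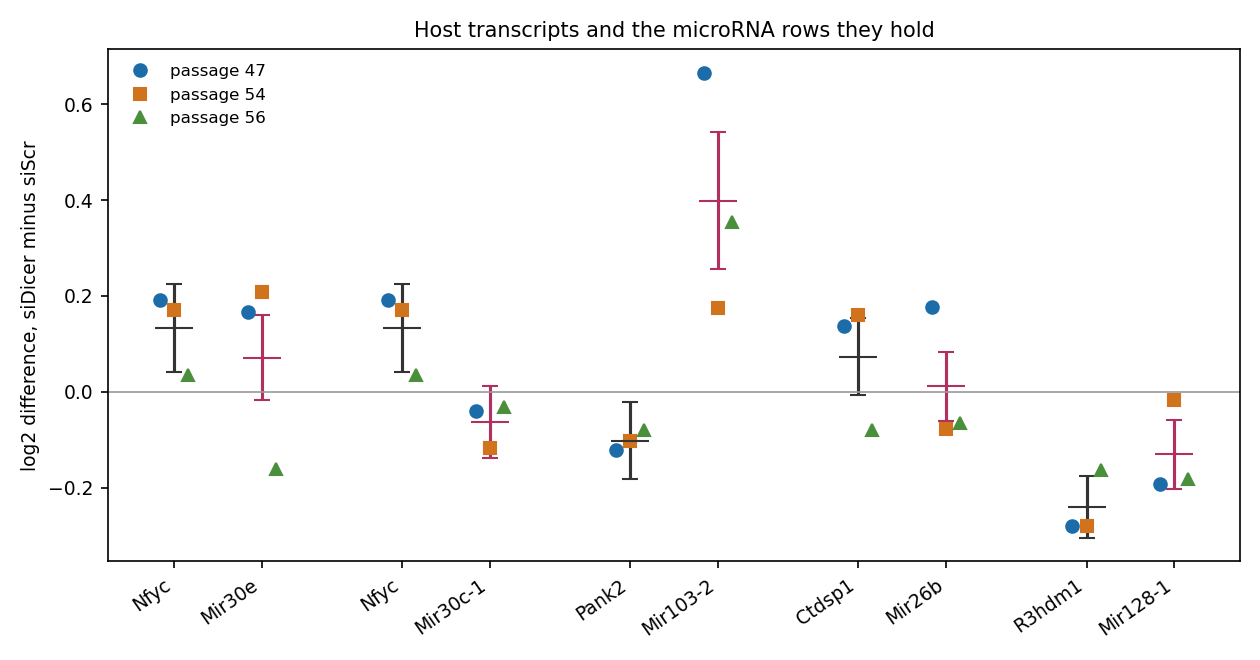
Log2 difference, siDicer minus siScr, of each host (black) and of the microRNA cluster it holds (red), as the mean with its standard error and as the value at each passage. The standard error is from the fit without passage as a block, so it is not the spread of the passage values. Mir103-2 lies at 0.40 beside Pank2 at -0.10, while R3hdm1 and Mir128-1 both lie below 0; Nfyc is drawn beside each of its microRNA clusters.

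The 3 genes whose 6 array values followed each host most closely are given as a description. R3hdm1 was followed by Usp45, Vcpip1 and Pcmtd1 (Pearson's r of 0.989, 0.988 and 0.979 over 6 arrays), which differed by -0.43, -0.25 and -0.47. Usp45 and Vcpip1 are deubiquitinases, and all 3 were lower on every siDicer array than on any siScr array. They were chosen for likeness to R3hdm1, whose groups did not overlap, so this gap comes with the choice and is no separate result. Nfyc was followed by Gm22114, Arhgap1 and Zbtb40 (0.992, 0.989 and 0.987), Pank2 by Rngtt, Phospho2 and Rc3h1 (0.978, 0.975 and 0.969), and Ctdsp1 by Rbck1, Zfp335 and Noc2l (0.996, 0.994 and 0.993). Among the members, Nfyc and Ctdsp1 correlated at 0.62 and Pank2 and R3hdm1 also at 0.62, while Nfyc and R3hdm1 correlated at -0.47.

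A list of 19 other genes on chromosomes 1 to 4 with known microRNAs within their bounds, from general knowledge and checked against RefSeq positions, was read in the same way. The list was not split by strand. Mir181a-2, for example, lies on the strand opposite to Nr6a1, so Nr6a1 transcription does not copy it. Of 17 tested, 6 were higher and 11 lower in siDicer, with a median of -0.031, and 0 passed with or without passage as a block (limma; 0.0187% and 1.76% of all genes passed). At an unadjusted p under 0.05 (limma) there were 2 of the 17, Tmem245 and Gpc1, where 8.51% of all genes were. Lingo2 lay under the low-signal limit, and Nrdc, listed on the arrays as Nrd1, shared its cluster with Mir761.

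Tmem245, a membrane protein whose gene holds Mir32, had a log2 signal of 8.60, 8.56 and 8.73 in siDicer cells, against 8.35, 8.32 and 8.25 in siScr cells. All 3 siDicer arrays lay above all 3 siScr arrays, a gap seen in either direction in 14.4% of tested genes. The difference was 0.32 ± 0.072 (SE, limma, adjusted p = 0.231, and 0.0923 with passage as a block). Mir32 itself lay under the low-signal limit. Gpc1, a cell-surface heparan sulfate proteoglycan whose gene holds Mir149, had 10.90, 10.38 and 10.35 in siDicer, against 10.36, 9.90 and 10.15 in siScr. Its groups overlapped, with siDicer at passage 56 just below siScr at passage 47, and the difference of 0.40 ± 0.17 (SE) did not pass (limma, adjusted p = 0.574, and 0.0755 with passage as a block). It was 0.22 without siDicer replicate 1 (limma, adjusted p = 0.81). With the block, leaving out passage 47 gave 0.33 and leaving out passage 54 gave 0.37, neither past the threshold (limma, adjusted p = 0.354 and 0.365). Leaving out passage 56 gave 0.51, which passed (limma, adjusted p = 0.0136). The Mir149 cluster differed by 0.0034.

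The other 15 tested hosts lay between -0.11 and 0.13. Smc4, a condensin subunit that holds Mir15b and Mir16-2, differed by -0.059 ± 0.17 (SE), with passages at -0.19, -0.24 and 0.25. Zranb2, a splicing factor, differed by -0.018, Larp7, which binds the 7SK RNA, by 0.068, and Iars2, the mitochondrial isoleucyl-tRNA synthetase, by 0.062. None of these 4 passed (limma, adjusted p from 0.874 to 0.973). The adaptor Bcar3 differed by 0.13, the nuclear receptor Nr6a1 by -0.11, the dynamin Dnm1 by -0.11 and the collagen Col27a1 by -0.076, again without passing (limma, adjusted p from 0.717 to 0.874). Nr6a1 was lower on all siDicer arrays (5.64 to 5.78) than on any siScr array (5.80 to 5.87). Of the 17 tested hosts, 2 (Tmem245 and Nr6a1) had groups without overlap, as did 14.4% of all tested genes. The other 7 tested, Sfmbt2, Lemd1, Myh7b, Astn1, Megf6, Egfem1 and Focad, lay between -0.060 and 0.0032.

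**Figure D3:**
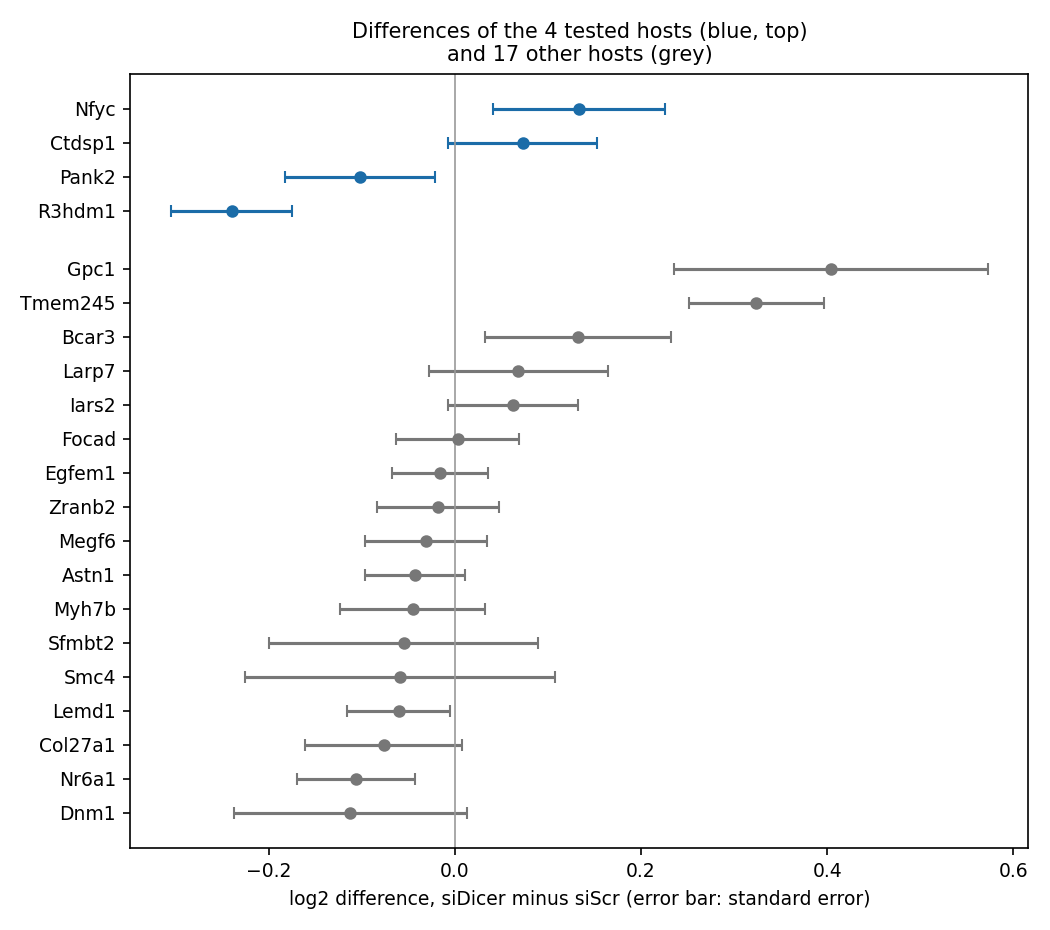
Log2 difference, siDicer minus siScr, with its standard error from the fit over all genes, for the 4 tested hosts (blue) and the 17 other tested hosts (grey). R3hdm1 at -0.24 lies lowest of all 21, and Gpc1 at 0.40 and Tmem245 at 0.32 lie highest.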

How the data were processed

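RNA of 6 Melan-a cultures was read on Affymetrix Clariom D mouse arrays, 100 ng each with an RNA integrity number of 10.0, per the labels. The authors deposited log2 signals per transcript cluster, made with Affymetrix Expression Console per the submitters' processing notes. Which summarisation, background correction, annotation release and build they chose is not given in the sources used here. The log2 scale was read from the values (1.70 to 13.70). Scanner files were not used, so signal over background is unknown, and the number of arrays limits the precision.

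Of 16383 clusters, all with chromosomes 1 to 4 in their identifiers, the platform annotation gave 7676 a single gene, 309 several and 8398 none. RefSeq changed 317 symbols. The cluster with the highest mean stood for a gene, and genes under the 30th percentile of mean signal (log2 4.15) were left out, leaving 5336.

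The siDicer and siScr arrays were fitted in R 4.3.3 with limma 3.58.1 (moderated with trend, two-sided, Benjamini-Hochberg), tested on simulated data. Each replicate number stands for 1 passage in the labels, which pairs the arrays. Same-numbered deviations from the group means correlated at 0.42, 0.62 and 0.07. The highest correlation with a differently numbered array of the other group was 0.285, -0.024 and 0.285, which for passage 56 was above the same-numbered value. Changes of microRNA minus host were tested by exact permutation of the arrays between groups, without regard to passage. Alternatives were the passage block, other filters, all clusters, quantile or median scaling, array weights, no trend, and arrays or passages left out. Named genes were the members, their microRNA clusters, listed hosts and the 3 nearest profiles. Members and lists were chosen with earlier results of these data known. The p-values measure the spread between cultures of 1 line.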

Additional observations from a re-analysis of the deposited data

How the results depend on the processing

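No member, and no microRNA cluster beside it, crossed the threshold under any alternative run, passage as a replicate block included, and the block changed no call of a member. The directions of Nfyc, Pank2, Ctdsp1, R3hdm1, Mir30c-1, Mir103-2 and Mir128-1 were the same under all alternatives. Mir30e turned to -0.0031 with array weights and ranged from -0.0072 to 0.16 with 1 array left out, and Mir26b from -0.048 to 0.058, reaching -0.071 with the block and without passage 47. Mir30e minus Nfyc ranged from -0.11 to 0.006 and Mir26b minus Ctdsp1 from -0.11 to 0.026 with passages left out; the cause was not tested. Over all genes 1 passed, against 94 with passage as a replicate block, 22 with the block and dim genes kept, 13 with the block and all clusters, 2 after median centring and 14 with array weights, between 0 and 2 with 1 array left out, and 5, 18 and 154 with the block and without passages 47, 54 and 56. Of the 19 other hosts, 17 of them tested in the main fit, 0 passed, and 1 (Gpc1) did with the block and without passage 56. The 2 alternatives that join the block with dim genes or all clusters were chosen after seeing the data.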

Other observations

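RefSeq positions give a wider set of 150 protein-coding genes on chromosomes 1 to 4 with a microRNA gene within their bounds, of which 104 were tested. Only the named members were taken out, so other hosts listed above are counted again where RefSeq places a microRNA gene in them. In siDicer cells 53 were higher and 51 lower, with a median log2 difference of 0.0030, against -0.0092 over all tested genes. None passed (limma) and 16 of the 104 had an unadjusted p under 0.05, where 0.0187% and 8.51% of all genes did. With passage as a block 1 passed and 22 of the 104 had an unadjusted p under 0.05, where 1.76% and 13.8% of all genes did. These shares were not tested against those of all genes. Of the 104, 71 had a microRNA gene on their own strand, with 11 at an unadjusted p under 0.05 (limma) and 16 with the block. Another 16 had it only on the opposite strand, with 3 in either fit. Strand was not used here for the rest. The gene that passed with the block was Fndc3b, a fibronectin type III domain protein of the endoplasmic reticulum that holds Mir3092. It read 9.02, 9.20 and 8.99 in siDicer, against 8.58, 8.74 and 8.51 in siScr, with no overlap, and differed by 0.46 (limma, adjusted p = 0.0259 with passages as blocks, and 0.174 without). Groups without overlap were found for 20 of the 104 and for 14.4% of all tested genes. Fndc3b was named after its values were seen.

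Among the microRNA clusters of the other hosts 11 were tested, and 0 passed (limma), with 1 at an unadjusted p under 0.05, where 0.0187% and 8.51% of all genes did. That one, Mir181a-2, passed with passages as blocks, where 1.76% of all genes did. Mir181a-2, which lies on the strand opposite to Nr6a1 and within the long noncoding RNA Nr6a1os, read 5.33, 5.75 and 5.34 in siDicer, against 4.79, 5.34 and 4.49 in siScr. It was higher at every passage, by 0.54, 0.41 and 0.85, where 36.1% of all tested genes had 1 direction at all passages. The groups overlapped, with siScr at passage 54 just above siDicer at passage 47. The mean difference of Mir181a-2 was 0.60 ± 0.087 (SE with passages as blocks, limma, adjusted p = 0.0284, and 0.452 without blocks). Mir181b-2, tested in the same list, read 4.83, 5.54 and 5.08 in siDicer, against 4.83, 5.47 and 4.39 in siScr. Its difference of 0.25 did not pass (limma, adjusted p = 0.865, and 0.45 with passages as blocks). Nr6a1 differed by -0.11. Mir30c-2, which makes the same mature miR-30c-5p as the hairpin in Nfyc, read 6.97, 6.71 and 7.04 in siDicer and 7.03, 6.96 and 6.95 in siScr, a difference of -0.073 (limma, adjusted p = 0.897). Mir181a-2, Mir181b-2 and Mir30c-2 were named after their values were seen.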
